A study of Homo sapiens with 3 samples.

Results

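The nuclear genes of the mitochondrial respiratory chain and ATP synthase were examined in 3 populations of CD31+CD34+ cells made from human embryonic stem cells. Members were all genes whose symbols follow the naming of the subunits of complex I (NDUFA, NDUFB, NDUFC, NDUFS and NDUFV genes), complex II (SDHA to SDHD), complex III (UQCR genes), complex IV (COX4 to COX8 genes with a letter A to C after the digit) and complex V (ATP5 genes). This rule found 85 of the 18345 genes in the tables: 39 for complex I, 3 for complex II, 9 for complex III, 15 for complex IV and 19 for complex V. The rule uses symbols and no measured value, but this gene family was taken up with earlier results of these data known. SDHD is not analysed here, and the subunit genes NDUFAB1, CYC1 and COX4I1 fall outside the naming rule and are given separately.

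H1, an embryonic stem cell line of human origin that is widely used, was the source of all cells. All 3 groups shared 1 culture scheme, with activin A (40 ng/ml) and BMP4 (50 ng/ml) for 2 days and then VEGF (40 ng/ml) and bFGF (50 ng/ml) for 3 days. The samples are nevertheless labelled as day 4. CD31+CD34+ cells, called HEPs in the labels, were divided by surface CD105 into CD105neg, CD105low and CD105high cells, and 1 RNA-seq library was made for each. No group has a replicate, so each difference below is a difference between 2 libraries, has no test and may be technical.

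The respiratory chain carries electrons from NADH, at complex I, and from succinate, at complex II, by way of ubiquinone to complex III, cytochrome c and complex IV, where oxygen is reduced. Complexes I, III and IV pump protons across the inner mitochondrial membrane, and complex V, the ATP synthase, uses that gradient to make ATP. Most subunits are encoded in the nucleus and imported, while some of the core subunits of complexes I, III, IV and V are encoded in mitochondrial DNA. In endothelial cells glycolysis is known to supply much of the ATP, and the respiratory chain is known to serve biosynthesis and redox balance as well.

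The deposited values, treated as FPKM (a measure of reads per transcript length, corrected for sequencing depth), summed to between 265618 and 289229 per library. The number of reads behind them is unknown, so no counting interval can be given. Where 3 levels follow each other below, they are those of CD105neg, CD105low and CD105high, in this order. The gate genes were present in all libraries, with 29.9, 41.9 and 50.1 FPKM for PECAM1, which encodes CD31, and 21.0, 39.2 and 43.2 FPKM for CD34. ENG, which encodes CD105, followed the sort with 2.12, 8.56 and 13.8 FPKM, although the value column of the CD105neg library is headed as CD105 positive. Its title and cell type labels, which say CD105 negative, set the group here.

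The comparisons use the 75 of 85 members with a level of 1 FPKM or more in 1 library or more. The other 10 stayed below 1 FPKM in all 3 libraries. They are tissue-restricted isoforms, copies and read-through genes, described with their complexes. As a sum, the members held 1.97% of all FPKM in CD105neg, 1.78% in CD105low and 1.70% in CD105high. The median level of the 75 was 48.8, 44.1 and 41.8 FPKM, against 9.43, 9.76 and 9.12 FPKM over the 11343 genes that reached 1 FPKM. The chain was thus expressed at a high level in each population. Levels of 100 FPKM or more were reached by 19 members in CD105neg, 15 in CD105low and 14 in CD105high.

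Each complex descended in its summed level from CD105neg through CD105low to CD105high. Complex I summed to 1923, 1713 and 1532 FPKM, complex II to 96.8, 80.7 and 67.7 FPKM, and complex III to 720.3, 621 and 545 FPKM. The nuclear subunits of complex IV summed to 1256, 1219 and 1086 FPKM, with the smaller step between CD105neg and CD105low, and those of complex V to 1697, 1437 and 1297 FPKM, with the larger step there. As a share of all FPKM, complex IV held 0.434% in CD105neg and 0.409% in CD105high, and complex V 0.587% and 0.488%.

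**Figure D1:**
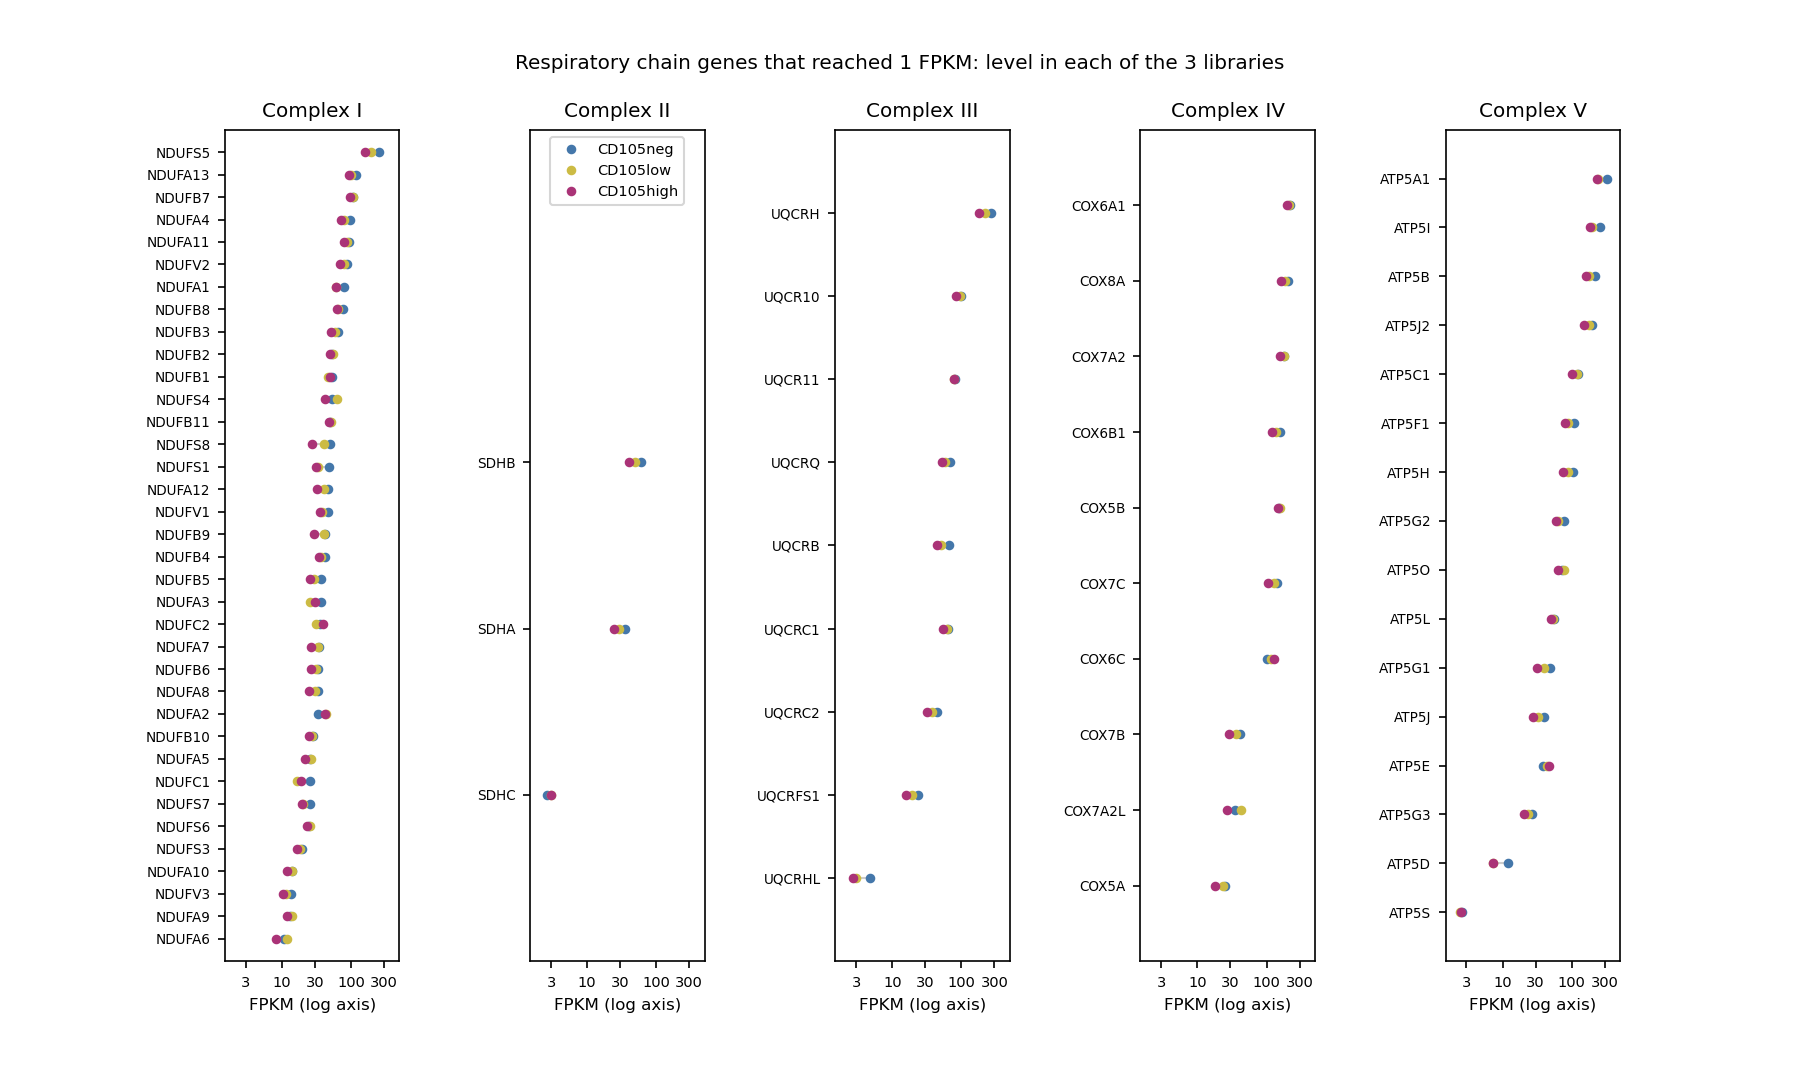
Level of 74 of the 75 members that reached 1 FPKM, by complex, with FPKM on a log axis. Each point is 1 library, and the grey bar joins the lowest and the highest. Of the 75, CD105neg was the highest library for 58 and CD105high the lowest for 65, while levels within a complex ranged far wider than the libraries did.

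Respiratory chain genes were mostly at their highest level in CD105neg and at their lowest in CD105high. CD105neg was the highest library for 58 of the 75 members (77.3%), against 43.3% of all genes compared. CD105high was the lowest for 65 members (86.7%), against 54.1% of all genes. In CD105high against CD105neg the median log2 fold change of the members was -0.35, and that of all genes was -0.09. Below 0 in this pair were 70 of the 75 members (93.3%), against 61.0% of all genes. Fold changes are those of FPKM plus a pseudocount of 1, so for weakly expressed genes they are smaller than the plain ratio. The differences were small for single genes. At least 1.5-fold lower in CD105high were 6 of the 75 members, where 6.88% of all genes were, and 0 members were at least 1.5-fold higher, where 5.65% of all genes were. A smaller limit, 0.32 on the log2 scale, counts a gene as lower at 80% or less of the other library's FPKM plus 1. By this limit 43 of 75 members were lower (57.3%), where 22.8% of all genes were, and 2 were higher, where 12.9% of all genes were. Below, "past the smaller limit" refers to this rule. The differences of the members were thus many and small, and mostly of the same sign. The SD of their fold changes was 0.22 on the log2 scale, against 0.43 over all genes.

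Level and transcript length moved with this pattern. The members have short transcripts, with a median of 703 bases against 1786 bases for all genes compared. Among the 1089 genes that reached 50 FPKM the median log2 fold change was -0.17, and among the 503 of these with a median transcript under 1000 bases it was -0.23, with 38.8% lower and 8.95% higher past the smaller limit. These 503 include respiratory chain and ribosomal protein genes. The part that length and level have in the members' difference was not tested. Of the 75 members, 30 share at least 10% of their sampled transcript sequence with other genes, and the median of the remaining 45 was -0.36. The 30 include genes lower in CD105high, such as ATP5O (54.5%) and NDUFV2 (50.7%). They also include genes higher in it, such as ATP5E (26.6%) and NDUFC2 (21.8%), while NDUFA2 (8.82%) and COX6C (0%), also higher, are not among them. On a scale centred on the median of all genes, 64 of 75 members were still below 0 in CD105high against CD105neg, 24 were lower past the smaller limit (32.0%, against 15.3% of all genes) and 3 were higher (4%, against 17.3%). The 6 members whose sign changed on centring, NDUFB1, NDUFB11, NDUFS6, UQCR11, COX5B and ATP5S, all lay between -0.10 and 0 before.

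**Figure D2:**
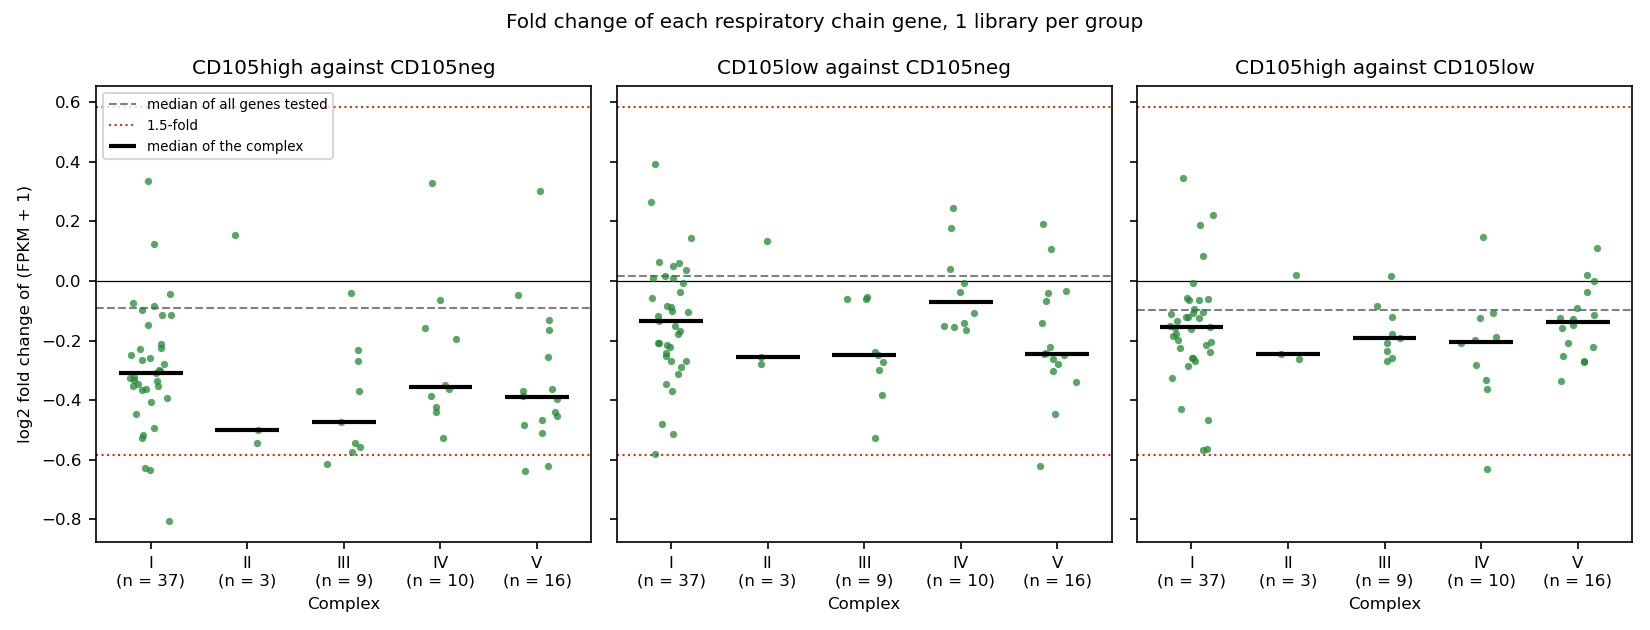
log2 fold change of FPKM + 1 for each member by complex, in the 3 pairs of libraries. Points are genes, black bars the median of each complex, the dashed line the median of all genes and the dotted lines 1.5-fold. In CD105high against CD105neg the medians of all 5 complexes lie below the line of all genes, between -0.31 and -0.50.

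Complex I, the NADH dehydrogenase, had 37 members compared. In CD105high against CD105neg 35 of them were below 0 (94.6%, against 61.0% of all genes), with a median log2 fold change of -0.31. Lower past the smaller limit were 18 (48.6%, against 22.8% of all genes). At least 1.5-fold lower were 3 (8.11%, against 6.88%), a share near that of all genes. The 7 core subunits encoded in the nucleus, which bind NADH and hold the flavin and the iron-sulfur clusters, were all below 0, with a median of -0.35. The largest difference of any member was that of NDUFS8 (ENSG00000110717.12), a core subunit that holds iron-sulfur clusters. NDUFS8 stood at 48.8, 41.1 and 27.5 FPKM. Its CD105high level was thus 56.3% of the CD105neg level (log2 fold change -0.81), with most of the step between CD105low and CD105high.

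NDUFS1 (ENSG00000023228.13), the largest core subunit, stood at 48.1, 33.4 and 30.6 FPKM (log2 fold change -0.63 in CD105high against CD105neg). In contrast to NDUFS8, its CD105low value already lay close to its CD105high value. NDUFS5 (ENSG00000168653.10), a small accessory subunit and the most abundant complex I transcript, stood at 249, 193 and 161 FPKM, with the larger step between CD105neg and CD105low. The core genes NDUFV1, NDUFV2, NDUFS3 and NDUFS7 had log2 fold changes between -0.25 and -0.35, smaller than those of NDUFS8 and NDUFS1, so the core subunits of 1 complex did not move by the same amount.

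Of the accessory subunits, which surround the core, 27 of 29 were below 0 (93.1%, against 61.0% of all genes), with a median of -0.30. NDUFA13, next to NDUFS5 in mean level over the libraries, stood at 119.6, 99.1 and 94.8 FPKM. Both exceptions were accessory subunits. NDUFA2 (ENSG00000131495.8), an accessory subunit of the electron input arm, stood at 32.9, 43.6 and 41.8 FPKM (log2 fold change 0.34), so CD105neg was its lowest library. NDUFC2 (ENSG00000151366.12), of the membrane arm, stood at 36.0, 30.8 and 39.3 FPKM (0.12), so its lowest library was CD105low. NDUFC2 shares 21.8% of its sampled transcript sequence with other genes, among them its own read-through gene NDUFC2-KCTD14, which stayed below 1 FPKM at 0.81, 0.59 and 0.72 FPKM. Among the other accessory subunits, NDUFB5 (36.8, 29.4 and 25.2 FPKM, -0.53), NDUFB9 (42.6, 40.1 and 29.5 FPKM, -0.52) and NDUFA12 (46.3, 39.99 and 32.6 FPKM, -0.49) were the lowest after NDUFS5. NDUFB9 and NDUFA12 both had the larger step between CD105low and CD105high, and NDUFB9 was nearly level between CD105neg and CD105low. At the low end of complex I, NDUFA6, NDUFA9, NDUFA10 and NDUFV3 stood between 8.32 and 14.0 FPKM in the 3 libraries.

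NDUFA4 carries a complex I name and was counted there, but it is known as a subunit of complex IV. It stood at 96.3, 79.8 and 70.4 FPKM (log2 fold change -0.45). Its paralogue NDUFA4L2, known to be induced by hypoxia, stood at 0.25, 0.29 and 0.32 FPKM, below the limit of 1 FPKM in every library. NDUFAB1, an acyl carrier protein that is also a complex I subunit and that the naming rule misses, stood at 91.1, 85.3 and 78.0 FPKM (-0.22).

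Complex II, succinate dehydrogenase, is also an enzyme of the tricarboxylic acid cycle and has no subunit encoded in mitochondrial DNA. Its catalytic subunits were lower in CD105high by a like amount. SDHA (ENSG00000073578.16), the flavoprotein that oxidises succinate, stood at 34.8, 29 and 24.3 FPKM (log2 fold change -0.50). SDHB (ENSG00000117118.9), the iron-sulfur subunit, stood at 59.4, 48.7 and 40.4 FPKM (-0.54). SDHC (ENSG00000143252.14), a membrane anchor, was far lower in level and did not share the order, with 2.60, 2.95 and 3.01 FPKM (0.16). SDHA and SDHC share 22.9% and 12.2% of their sampled sequence with other genes, and the division of reads between such genes is unknown.

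In complex III, the cytochrome bc1 complex, all 9 members were lower in CD105high than in CD105neg (8 of 9 on the centred scale, with UQCR11 at 0.05), and all 9 were highest in CD105neg. Of all genes, 61.0% were below 0 in this pair and 43.3% were highest in CD105neg. The median log2 fold change of complex III was -0.47, and 6 of 9 were lower past the smaller limit (66.7%, against 22.8% of all genes). UQCRH (ENSG00000173660.11), the hinge protein that meets cytochrome c, was the most abundant at 267, 217 and 181 FPKM (-0.56). UQCRB, a ubiquinone-binding subunit, stood at 66.5, 50.8 and 44.3 FPKM (-0.57). UQCRFS1, the Rieske iron-sulfur protein of the electron path, stood at 23.5, 19.3 and 15.8 FPKM (-0.54). These 3 genes descended from CD105neg through CD105low to CD105high.

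The core proteins UQCRC1 and UQCRC2, which have a structural role, differed from each other. UQCRC2 stood at 44.5, 37.5 and 31.7 FPKM (-0.47) and UQCRC1 at 64.6, 62.2 and 54.9 FPKM (-0.23). UQCRQ, a small accessory subunit, stood at 68.6, 57.6 and 52.9 FPKM (-0.37). The small subunit gene UQCR11 was nearly level at 80.9, 77.6 and 78.5 FPKM (-0.04), and UQCR10 stood at 100.01, 95.8 and 82.8 FPKM. UQCRHL, a copy of UQCRH, had only 4.70, 2.95 and 2.72 FPKM and was 1.5-fold lower on the plus 1 scale (-0.61), but copies of this kind can take reads from the parent gene. CYC1, cytochrome c1, which the naming rule misses, stood at 58.6, 45.3 and 37.6 FPKM (-0.63).

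Complex IV, cytochrome c oxidase, transfers electrons to oxygen. Its catalytic core is encoded in mitochondrial DNA, and the members are the small nuclear subunits around it. Of the 10 compared, 9 were below 0 in CD105high against CD105neg, where 61.0% of all genes were (median -0.36). Lower past the smaller limit were 6 (60%, against 22.8% of all genes), and 0 were 1.5-fold lower, where 6.88% of all genes were. The median level of these 10, at 147.7, 134.4 and 124.2 FPKM, was the highest of the 5 complexes, although complexes I and V, with more members, had higher sums. COX6A1 stood at 219, 214 and 196 FPKM (-0.16), COX8A at 204, 184 and 159.9 FPKM (-0.35), and COX5B at 152, 156 and 145 FPKM (-0.07). The abundant COX6A1 and COX5B therefore differed little between libraries.

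The lowest fold changes in complex IV were those of COX7B (ENSG00000131174.4), at 41.1, 36.5 and 28.2 FPKM (-0.53), and COX5A (ENSG00000178741.11), at 25, 23.1 and 18.1 FPKM (-0.44). COX7C stood at 143, 130.0 and 107 FPKM (-0.42). COX6C (ENSG00000164919.10) went the other way, with 102, 116 and 128 FPKM (0.33). It was the only complex IV member with its highest level in CD105high. COX7A2L (ENSG00000115944.14), which joins complexes III and IV into supercomplexes and is not counted as a subunit of the enzyme alone, was highest in CD105low, at 35.4, 42.2 and 26.9 FPKM. It was the only member at least 1.5-fold apart between CD105high and CD105low (-0.63), where 2.19% of all genes were at least 1.5-fold lower and 1.18% at least 1.5-fold higher.

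Several complex IV subunits exist as a ubiquitous form and a form known from heart and skeletal muscle or testis, and only the ubiquitous forms were expressed above 1 FPKM. The muscle forms were at or near 0: COX6A2 was listed at 0 in all 3 libraries, and COX7A1 stood at 0.19, 0.24 and 0.16 FPKM. Their ubiquitous partners were COX6A1, given above, and COX7A2, at 179, 178 and 156 FPKM (-0.19). The forms known from testis were also low. COX6B2 stood at 0.22, 0.12 and 0.0060 FPKM against 155, 139 and 120.0 FPKM for COX6B1 (-0.36), COX8C at 0.12, 0.04 and 0.08 FPKM, and COX7B2 was listed at 0 in all 3. COX4I1, the ubiquitous form of subunit 4 that the naming rule misses, stood at 86.8, 73.7 and 69.5 FPKM (-0.32), while COX4I2, the form known from lung and from hypoxia, reached at most 0.02 FPKM. No library differed from the others in which form it used.

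In complex V 15 of 16 members compared were below 0 in CD105high against CD105neg, where 61.0% of all genes were (median -0.39). Lower past the smaller limit were 11 (68.8%, against 22.8% of all genes). At least 1.5-fold lower were 2 (12.5%, against 6.88% of all genes). The F1 part, which makes ATP, has the subunits alpha to epsilon. ATP5A1 (ENSG00000152234.15), the alpha subunit and the most abundant member of all, stood at 324, 237 and 231 FPKM (-0.48), so nearly the whole difference lay between CD105neg and CD105low. ATP5B, the catalytic beta subunit, stood at 214, 179 and 164 FPKM (-0.39), and ATP5C1, the gamma subunit of the rotor, at 123, 120.1 and 103 FPKM (-0.26). The smallest F1 subunits parted. ATP5D (ENSG00000099624.7), the delta subunit, stood at 11.8, 7.35 and 7.34 FPKM (-0.62). ATP5E (ENSG00000124172.9), the epsilon subunit, stood at 38.5, 44.1 and 47.7 FPKM (0.30), the reverse order, and it shares 26.6% of its sampled sequence with other genes.

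Subunit c, which forms the rotor ring in the membrane, is made from 3 genes that encode the same mature protein behind different import signals. ATP5G1 (ENSG00000159199.13) stood at 48.8, 39.4 and 31.0 FPKM (-0.64), ATP5G2 at 76.5, 64.2 and 59.2 FPKM (-0.36) and ATP5G3 at 27.1, 23.1 and 20.7 FPKM (-0.37). All 3 descended with CD105. Together they gave 152, 127 and 111 FPKM. ATP5G1 supplied 32.0% of this sum in CD105neg and 27.9% in CD105high, and ATP5G2 50.2% and 53.4%, so ATP5G2 was the main source in each library.

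The peripheral stalk, which holds F1 still, had 4 of 4 members below 0 (ATP5F1, ATP5H, ATP5J and ATP5O, median -0.45), where 61.0% of all genes were. Of these, ATP5O was the nearest to level at 71.6, 77.2 and 63.7 FPKM (-0.17). ATP5J, which stood at 39.3, 33.1 and 27.3 FPKM (-0.51), was the furthest from it, and ATP5F1 and ATP5H lay between them at -0.44 and -0.45. Of the small membrane subunits, ATP5I stood at 253, 199.97 and 183 FPKM (-0.47), ATP5J2 at 197, 179 and 149.7 FPKM (-0.40) and ATP5L at 55.8, 54.2 and 50.8 FPKM (-0.13). ATPIF1, the inhibitor protein of the enzyme, has no ATP5 name and was nearly level at 72.0, 68.7 and 66.5 FPKM (-0.11). ATP5S, an accessory factor that is not a subunit, had 2.58, 2.42 and 2.47 FPKM. The copies ATP5EP2 and ATP5L2 and the read-through gene ATP5J2-PTCD1 stayed between 0.07 and 0.51 FPKM.

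In CD105low against CD105neg the members differed less. The median log2 fold change was -0.15, against 0.02 for all genes, and 59 of 75 members were below 0 (78.7%), against 47.3% of all genes. Past the smaller limit 10 members were lower (13.3%), where 9.5% of all genes were, and 1 was higher, NDUFA2 (0.39), where 12.7% of all genes were. ATP5D was the only member at least 1.5-fold lower (-0.62), where 2.18% of all genes were, and 0 members were at least 1.5-fold higher, where 4.13% of all genes were. NDUFC1, a small complex I subunit, lay just inside that limit (-0.58), at 25.2 FPKM in CD105neg and 16.5 FPKM in CD105low, with CD105high in between at 18.9 FPKM. The complexes were uneven. The medians were -0.14 for complex I, -0.26 for complex II, -0.25 for complex III, -0.07 for complex IV and -0.24 for complex V. Both comparisons with CD105neg rest on its 1 library and are therefore not independent.

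In CD105high against CD105low the median of the members was -0.16, near the -0.10 of all genes, and 66 of 75 were below 0 (88.0%), against 71.5% of all genes. Past the smaller limit 9 members were lower (12%), where 11.2% of all genes were, a share near the background. NDUFC2 was the only member higher past it (0.34), where 4.16% of all genes were. Besides COX7A2L, the lowest were NDUFS4 (-0.57), an accessory subunit of the electron input arm, and NDUFS8 (-0.56). NDUFS4 was highest in CD105low, at 52.5, 63.4 and 42.4 FPKM. By complex the medians ran from -0.14 in complex V to -0.25 in complex II. On the scale centred on all genes the median of the members was -0.06.

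**Figure D3:**
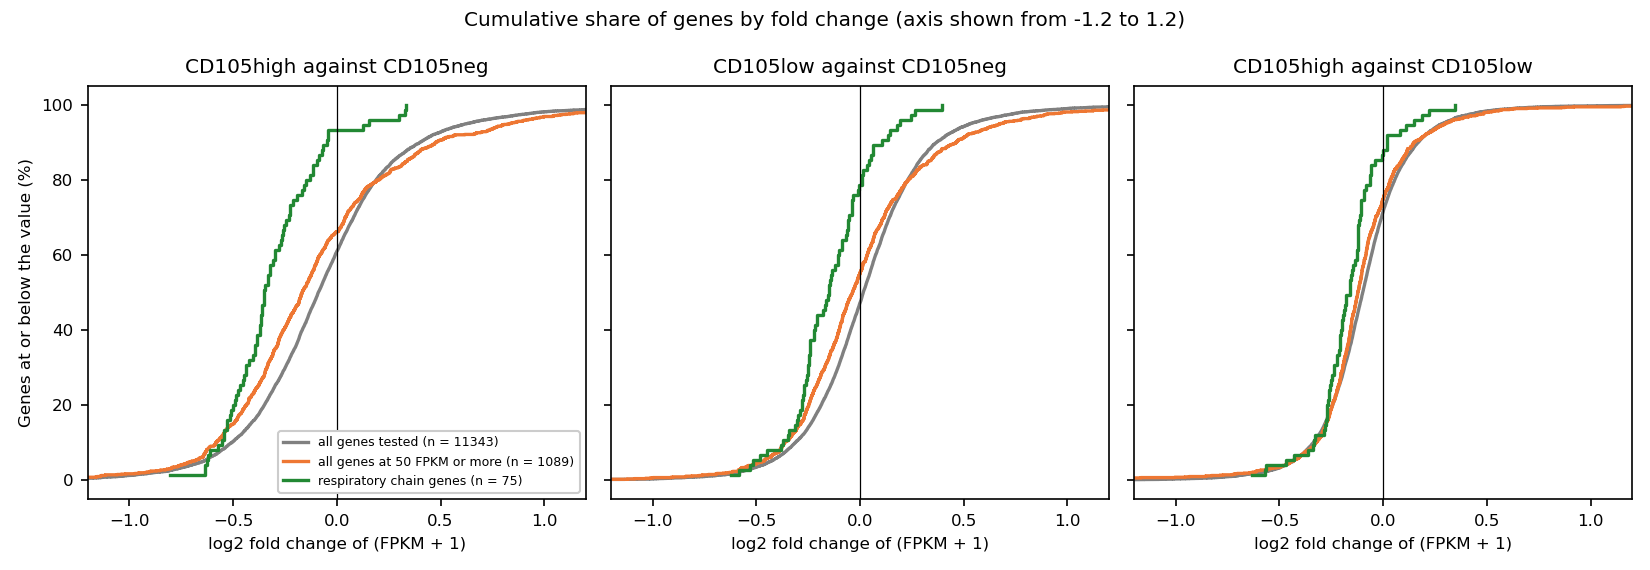
Cumulative share of genes, in percent, by log2 fold change of FPKM + 1 in the 3 pairs of libraries, for all 11343 genes compared, the 1089 that reached 50 FPKM and the 75 members. The members' curve lies to the left of both others over most of its range in CD105high against CD105neg (median -0.35, against -0.09 and -0.17), and near them in CD105high against CD105low (-0.16, against -0.10 and -0.12).

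Promoters are shown because many members differed by a small amount in the same direction and some share a known promoter element. RefSeq promoters (250 bases before to 50 after the gene start, build GRCh38.p14, a different build from that of the expression tables) were matched to 60 of the 75 members. They were searched on both strands for GCGCATGCG, part of the sequence bound by the transcription factor NRF1, which is known to act on genes of the respiratory chain, and for CCGGAAG, a core bound by ETS factors. A run that reads the same on both strands was counted as 1 promoter. GCGCATGCG was in 9 of the 60 promoters (15.0%), against 3.70% of the 9199 promoters of all genes compared and 2.10% of the 27305 in the table. CCGGAAG was in 17 (28.3%), against 19.3% and 10.7%. The following 30-base windows lie upstream of the start, read 5′ to 3′ along the gene's strand, with the match in capitals (CGCATGCGC is the match on the other strand).
ATP5C1 (ATP5F1C), chr10:7788145-7788174, plus strand: gggagcttcgGCGCATGCGcgctgaggcct
ATP5G2 (ATP5MC2), chr12:53676105-53676134, minus strand: gcccgggtcaCGCATGCGCtgagccttcct
ATP5I (ATP5ME), chr4:674335-674364, minus strand: gccgctgacgGCGCATGCGtgcgcccagct
ATP5J (ATP5PF), chr21:25735155-25735184, minus strand: cactcaaagaGCGCATGCGtacagagcaag
COX6A1, chr12:120437884-120437913, plus strand: ggagggcacaCGCATGCGCacgaaggaaac
NDUFB4, chr3:120596167-120596196, plus strand: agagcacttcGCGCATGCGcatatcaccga
NDUFS6, chr5:1801351-1801380, plus strand: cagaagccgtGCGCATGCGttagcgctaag
NDUFS7, chr19:1383823-1383852, plus strand: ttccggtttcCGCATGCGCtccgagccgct

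The 9 members with GCGCATGCG (the 8 above and NDUFA8, not shown) had a median log2 fold change of -0.35 in CD105high against CD105neg, and the 51 without it -0.33. They ranged from ATP5J (-0.51) to NDUFS6 (-0.07). The 17 members with CCGGAAG had a median of -0.35 and the 43 without it -0.32. In CD105low against CD105neg the medians with and without CCGGAAG were -0.24 and -0.12, and in CD105high against CD105low they were -0.12 and -0.20, in the reverse order. For GCGCATGCG they were -0.18 and -0.14 in the former pair and -0.13 and -0.19 in the latter. None of these differences was tested. A match is a description of these letters, and binding was not measured.

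Other genes of the pathway are given from lists of known members. For comparison, 61.0% of all genes were below 0 in CD105high against CD105neg. Past the smaller limit 22.8% of all genes were lower and 12.9% higher. The 13 subunits encoded in mitochondrial DNA were all lower in CD105high than in CD105neg (median -0.36, with 12 past the smaller limit). They are transcribed together from 1 small genome and are not independent of each other. MT-CO1, the catalytic subunit of complex IV, stood at 186, 177 and 144 FPKM, and MT-CO3 at 144, 133 and 113 FPKM. MT-ATP6 of complex V had only 2.41, 1.75 and 1.72 FPKM. MT-ND1 and MT-ND2 of complex I were also low, at 3.86 and 5.18 FPKM in CD105neg. All 13 summed to 511 FPKM in CD105neg, where the nuclear gene ATP5A1 alone had 324 FPKM. How completely the mitochondrial transcripts were counted is unknown, so their levels and differences may be affected. Of the complex I assembly factors 6 of 17 were lower past the smaller limit (median -0.30), and of those of complex IV 8 of 20 (median -0.18). The 4, 6 and 4 assembly factors of complexes II, III and V had medians of -0.27, -0.23 and -0.11, and 2, 2 and 0 of them were lower past it. In none of these 6 lists was a gene higher past that limit in CD105high against CD105neg.

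The electron carriers and their makers had 6 of 13 genes lower past the smaller limit and 0 higher (median -0.25). Of all genes, 22.8% were lower past it and 12.9% higher. CYCS, cytochrome c, stood at 42.3, 35.0 and 28.2 FPKM (-0.57). Enzymes of the tricarboxylic acid cycle were nearer to all genes, with 3 of 16 lower (18.8%), 1 higher (6.25%) and a median of -0.18. The one higher was CS, citrate synthase, at 13.6, 19.3 and 18.2 FPKM (0.39), named after its values were seen. Mitochondrial content was not measured. Mitochondrial import genes had 12 of 22 lower and 0 higher (median -0.36), and genes of mitochondrial DNA expression 4 of 10 lower and 0 higher (median -0.30).

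Mitochondrial ribosomal proteins had 44 of 78 genes lower past the smaller limit and 0 higher in CD105high against CD105neg (median -0.35), glycolytic enzymes 11 of 17 lower and 0 higher (median -0.35), and cytosolic ribosomal proteins 66 of 80 lower and 0 higher (median -0.49). The median of the members thus equalled those of the mitochondrial ribosome and of glycolysis to 2 decimals, and that of the cytosolic ribosome was lower. Of all genes, 22.8% were lower past this limit and 12.9% higher. Differences between the lists were not tested.

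**Figure D4:**
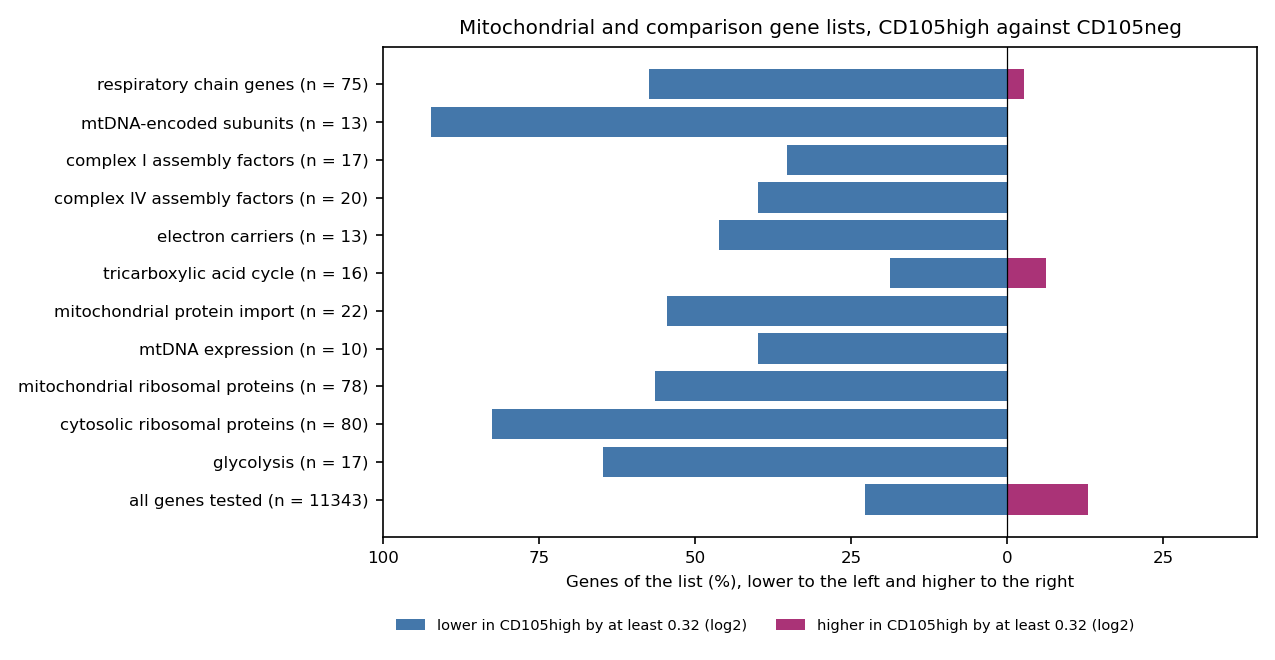
Share of the genes in each list that were lower (left) or higher (right) in CD105high than in CD105neg by 0.32 or more on the log2 scale of FPKM + 1, with the number of genes compared. Respiratory chain genes (57.3% lower) lie beside mitochondrial ribosomal proteins (56.4%), above all genes (22.8%) and below cytosolic ribosomal proteins (82.5%).

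Markers of cell types also differed between CD105high and CD105neg. At 1.5-fold only the endothelial list was mostly higher. The erythroid and megakaryocyte list and the mesenchymal and mural list were mostly lower, and the remaining lists were neither. Of all genes in this pair, 6.88% were at least 1.5-fold lower and 5.65% at least 1.5-fold higher. The 10 erythroid and megakaryocyte markers of 16 that reached 1 FPKM were all lower in CD105high by 1.5-fold or more, and the summed level of the 16 was 72.8, 26.9 and 13.5 FPKM. The other 6 stayed below 1 FPKM. HBZ, HBA1, HBA2, AHSP and SLC4A1 were at or near 0 in all libraries, and GP9, a platelet glycoprotein gene, had 0.14, 0.30 and 0.37 FPKM, the reverse order. Of 12 endothelial markers 10 were at least 1.5-fold higher in CD105high (summed 1273, 1709 and 1755 FPKM). These 10 include ENG (log2 fold change 2.25), which encodes CD105, the protein the groups were sorted on, and the gate gene PECAM1 (0.73). Not among the 10 were CLDN5 (0.29) and EGFL7, at 558, 630 and 528 FPKM (-0.08). Of 9 mesenchymal and mural markers above 1 FPKM, 5 were at least 1.5-fold lower (summed over all 11, 486, 460 and 386 FPKM). Of 7 pluripotency and epithelial markers, 1 was at least 1.5-fold lower (summed 105, 95.7 and 85.1 FPKM). Of 7 cardiac markers 3 passed 1 FPKM and 1 was at least 1.5-fold lower (summed 17.2, 16.9 and 10.5 FPKM), and of 6 blood surface markers 2 passed, 1 lower and 1 higher (summed 11, 15.4 and 17.5 FPKM). In these bulk libraries fewer cells of a type and less RNA per cell cannot be told apart, and the part that cell makeup has in the members' levels was not tested.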

How the data were processed

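RNA-seq of 3 samples was analysed, 1 library per group. Each library used 2 ug of RNA and a TruSeq kit, per the labels' protocols. The deposited values, treated as FPKM, were made by the authors, whose processing notes name BWA, Bowtie, RSEM and build hg19 without a role or version. No unit is named for these 18345 genes per library. FPKM was chosen because the values are not whole numbers and their sums differ between libraries. TPM of part of the genes would look alike. Identifiers were matched to GENCODE release 29 (GRCh38) for transcript lengths (18317 genes) and for shared sequence, the share of 50-base pieces, taken every 40 bases, that also occurs in another gene's transcript. Of the 75 members compared, 30 share at least 10%.

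Genes with a highest level of 1 FPKM or more were compared by log2 fold change with a pseudocount of 1, and counted at 1.5-fold and at 0.32 on the log2 scale. No p-value is given. The counting was tested on simulated data. Members, lists and fold rules were chosen with earlier results of these data known. Named in the text were, per complex, the 2 most abundant members and the 2 lowest and 2 highest fold changes of CD105high against CD105neg among members at or above 10 FPKM, all of complex II, every member 1.5-fold apart, and sets of paralogues. NDUFA12, NDUFB5, NDUFB9, UQCRQ, COX7C, NDUFA6, NDUFA9, NDUFA10, NDUFV3, NDUFS4, NDUFC1, UQCRC2, UQCRFS1, ATP5B, ATP5C1, ATP5O, ATP5J2, ATP5S, NDUFV1, NDUFV2, NDUFS3, NDUFS7 and members with a promoter match were named besides, after their values were seen. So were NDUFB1, NDUFB11, ATP5F1, NDUFC2-KCTD14, ATP5EP2, ATP5L2 and ATP5J2-PTCD1. The values of 1 complex I member are counted but not reported here. Other pseudocounts, filters, scalings and member sets were tried. Python 3.11.15, pandas 2.3.3 and numpy 2.4.6 were used.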

Additional observations from a re-analysis of the deposited data

How the results depend on the processing

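No paired analysis was possible because each group has 1 library, and for the same reason no replicate could be left out. The median log2 fold change of the members stayed below 0 in all 8 alternatives for all 3 pairs: from -0.36 to -0.23 for CD105high against CD105neg, -0.17 to -0.13 for CD105low against CD105neg and -0.19 to -0.06 for CD105high against CD105low. The value of -0.23 came from scaling each library to the same sum, which moved the median of all genes in that pair from -0.09 to 0.02. The medians of all 5 complexes also stayed below 0 in every alternative and pair. Counts of members at least 1.5-fold lower depended on the setting, and the count of those 1.5-fold higher was 0 in each. For CD105high against CD105neg, 6 members became 2 with a pseudocount of 5, 1 on centring (NDUFS8) and 2 on scaling to equal sums (NDUFS8 and UQCRHL). For CD105low against CD105neg, 1 became 3 with a pseudocount of 0.1, 0 with a pseudocount of 5, 2 on centring and 2 on scaling. For CD105high against CD105low, 1 became 0 with a pseudocount of 5, on centring, on scaling and among structural subunits only, which leave out COX7A2L. On centring, the members lower by 0.32 or more went from 43 to 24 for CD105high against CD105neg (complex I from 18 to 7, complex IV from 6 to 3 and complex V from 11 to 7) and from 9 to 5 for CD105high against CD105low, and 6, 3 and 10 of the 75 members changed sign in the 3 pairs in that order. Without replicates, the sign of a single small difference is not secured, and the depth of the libraries is unknown.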
